A study of Mus musculus with 12 samples.

Results

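The Hippo pathway and YAP-TEAD genes followed here are 10 genes, chosen by symbol: the coactivator genes Yap1 and Wwtr1, the transcription factor genes Tead1, Tead2, Tead3 and Tead4, the kinase genes Lats1 and Lats2, and Amotl2 and Ankrd1, which are widely used as YAP-TEAD target genes. All 10 had a row in each of the 3 deposited tables, which together list 12484 genes. The tables come from mRNA sequencing of KPC cells, a mouse pancreatic ductal adenocarcinoma (PDAC) line. The 12 libraries were made from lines carrying a doxycycline-inducible shRNA against Ctr9 (shCTR9), Cdc73 (shCDC73) or Myc (shMYC), or a control shRNA against luciferase (shLuciferase), with 3 libraries per line. All lines, the control included, received doxycycline at 1 µg/ml for 48 h, so what doxycycline itself does is common to all groups. The labels name 1 line per shRNA, and the study describes the 3 RNA libraries of a line as biological replicates.

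YAP (encoded by Yap1) and TAZ (encoded by Wwtr1) are coactivators without a DNA-binding domain of their own, and reach DNA through the TEAD factors. When the Hippo pathway is active, the kinases MST1 and MST2 activate LATS1 and LATS2, which phosphorylate YAP and TAZ and thereby keep them out of the nucleus. In epithelial tumors YAP and TAZ are known for relaying cell contact, tension and growth signals. Ctr9 and Cdc73 encode subunits of the PAF1 complex (PAF1c), which travels with elongating RNA polymerase II. MYC, the product of Myc, is a transcription factor that drives growth programs.

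TEAD factors recognise a short DNA element whose core reads GGAATG on one strand and CATTCC on the other. Upstream sequence is shown for Ankrd1 and Amotl2, the target genes among the members, and for Yap1, whose level differed little between the tables, with every match to the core on either strand in capitals. The sequences are from RefSeq on GRCm38.p6, read 5′ to 3′ on the strand of the gene. They cover the 250 bases before an annotated start site: chr19:36119845-36120094 on the minus strand for Ankrd1, chr9:102717554-102717803 on the plus strand for Amotl2 and chr9:8004597-8004846 on the minus strand for Yap1. The Amotl2 stretch lies wholly inside the annotated gene (chr9:102717091-102733418), before a start site within it. The Yap1 stretch overlaps its annotated gene (chr9:7931999-8004638) at the end nearest the start site.
Ankrd1: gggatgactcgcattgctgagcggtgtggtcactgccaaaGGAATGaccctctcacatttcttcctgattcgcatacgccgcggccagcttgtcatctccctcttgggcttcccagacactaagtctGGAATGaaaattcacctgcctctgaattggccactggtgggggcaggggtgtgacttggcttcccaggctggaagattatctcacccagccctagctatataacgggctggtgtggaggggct
Amotl2: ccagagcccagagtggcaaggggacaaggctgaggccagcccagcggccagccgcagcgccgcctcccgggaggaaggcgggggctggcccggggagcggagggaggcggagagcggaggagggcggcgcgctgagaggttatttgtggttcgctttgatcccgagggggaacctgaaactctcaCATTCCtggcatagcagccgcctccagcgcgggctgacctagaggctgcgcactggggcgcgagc
Yap1: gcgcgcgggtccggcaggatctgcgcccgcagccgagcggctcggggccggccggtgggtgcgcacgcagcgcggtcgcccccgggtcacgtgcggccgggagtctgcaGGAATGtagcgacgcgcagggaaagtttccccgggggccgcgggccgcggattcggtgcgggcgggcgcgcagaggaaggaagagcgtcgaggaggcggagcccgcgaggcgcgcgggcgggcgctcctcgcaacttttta
Counted from the start site, with −1 as the last base before it, the matches begin at −210 and −123 in Ankrd1, at −65 in Amotl2 and at −141 in Yap1. RefSeq promoter windows of 300 bases, which run to 50 bases past the start site, were matched for 8 members in 12 windows. Windows of 1 gene can overlap, and both windows of Wwtr1 hold the same match. Counted by gene, 6 of the 8 members had a match in at least 1 window (Yap1, Wwtr1, Tead3, Lats2, Amotl2 and Ankrd1), at 10 distinct positions, and Tead2 and Lats1 had none. Of the 27025 genes in the RefSeq table, 16.6% had a match in at least 1 window. These matches describe the letters only, since no binding was measured in the libraries analysed here.

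Each table holds 1 mean level per gene, the authors' mean log2 CPM (CPM being read counts scaled to library size), taken over the 3 libraries of a depletion together with the 3 shLuciferase libraries. It is called the pooled mean here. With no value per library in use, a pooled mean has no error or interval, and differences between pooled means carry no test. The tables hold no depth per library, and the depths listed by the study were not used here. The tables were normalized separately. As the control libraries enter every pooled mean, the level in depleted cells alone is diluted in it, and a difference between 2 pooled means understates the difference between the depleted cells where the same controls entered both. Such a difference sets one depletion against another. At 1 log2 unit or less, it does not say which of them departed from the control. A wider one places the depleted cells of the higher table above the control. This holds if the controls were shared and a pooled mean is close to the average CPM of its libraries. Whether the other depletion departed too is not shown. The pooled means followed the labels, each shRNA target being lowest in its own table. Ctr9 had 16.5 CPM in the shCTR9 pooled mean, 41.7 in that of shCDC73 and 25.0 in that of shMYC. Cdc73 was lowest in the shCDC73 table (41.2, 21.9 and 37.3 CPM in the order shCTR9, shCDC73, shMYC) and Myc lowest in the shMYC table (155, 178 and 118 CPM). The keratin genes Krt8, Krt18 and Krt19, which mark epithelium, ranged over 1454 to 3929 CPM, and the adhesion gene Cdh1 over 217 to 301 CPM. Epcam had no row in any table. Krt7, a further keratin gene, had a row in 2, with 243.5 CPM in the shCTR9 table and 109 CPM in the shMYC table. All 4 mesenchymal markers had rows. Vim had 1467, 1164 and 1592 CPM, Cdh2 65.5, 86.1 and 131 CPM and Zeb1 24.3, 27.4 and 34.3 CPM in the shCTR9, shCDC73 and shMYC tables. Fn1, the fibronectin gene, ran the other way from Vim, at 25.2, 74.0 and 13.3 CPM, highest with shCDC73, and the part of such marker differences in the results was not tested. None of the 3 endothelial markers had a row, and of the 4 immune markers Cd68 alone had one, at 2.58 to 4.22 CPM. Of the 6 fibroblast markers Pdgfra alone had a row, at 1.81 CPM in the shCDC73 table and 1.28 CPM in the shMYC table. Of the 4 acinar markers Cela1 alone had one, with 3.66 to 6.90 CPM. In bulk RNA, fewer cells of a type and less RNA per cell cannot be told apart.

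Neither coactivator gene differed much between the tables. Yap1 (Entrez 22601, chr9:7931999-8004638, minus strand, with all gene coordinates on GRCm38.p6) had 125 CPM in the shCTR9 table, 132 in the shCDC73 table and 140 in the shMYC table. For Wwtr1 (Entrez 97064, chr3:57455644-57575910, minus strand) the values were 126, 140 and 140 CPM. On the log2 scale the highest and lowest pooled mean were 0.17 apart for Yap1 and 0.15 apart for Wwtr1, the narrowest ranges among the 10 members. Expressed per kilobase of exon, Yap1 stood at about the same ratio to Wwtr1 in each table, at 0.510, 0.485 and 0.516, and per kilobase of coding sequence at 0.915, 0.869 and 0.926. The balance between the coactivator genes thus depended on the length used and hardly on the table. An antisense gene, Gm20416, shares 116 bases of exon with Yap1, and the strand setting of the count is not given in the sources used here.

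**Figure D1:**
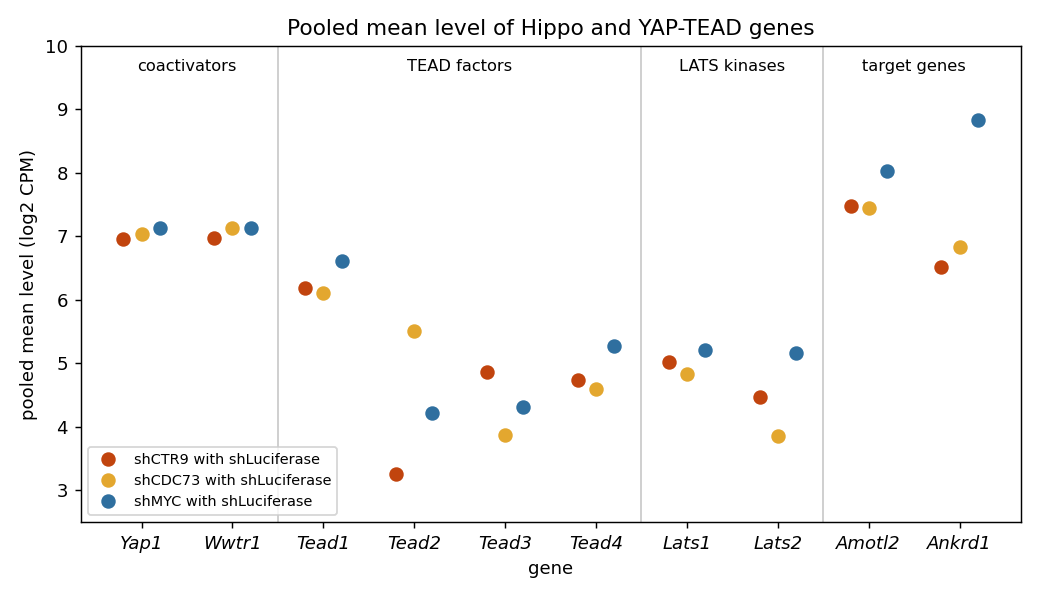
Pooled mean level (log2 CPM, vertical axis) of the 10 genes (horizontal axis), 1 point per table, each the mean of 3 depleted and 3 shLuciferase libraries, without error bars because no value per library was used. Across the tables the points of Yap1 span 0.17 log2 units and those of Wwtr1 0.15, while those of Ankrd1 and Tead2 span 2.32 and 2.24.

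Among the TEAD genes, which encode the DNA-binding partners of YAP and TAZ, Tead2 and Tead3 differed between the PAF1c tables in opposite directions, and Tead1 and Tead4 hardly did. Tead2 (Entrez 21677, chr7:45215792-45233468, plus strand) had 9.62 CPM in the shCTR9 table, 45.6 in the shCDC73 table and 18.6 in the shMYC table. It was therefore lowest with shCTR9 and highest with shCDC73, with a difference of −2.24 (shCTR9 minus shCDC73, log2, a ratio of 0.211), and 6 of 11806 genes lay lower in that difference. Tead3 (Entrez 21678, chr17:28331671-28350805, minus strand) ran the other way, at 29.2, 14.7 and 19.8 CPM, with a difference of 0.99 between shCTR9 and shCDC73, a ratio of 1.99. Tead1 (Entrez 21676, chr7:112679356-112906784, plus strand), the longest member at 227429 bases, had 72.9, 69.3 and 97.8 CPM. Tead4 (Entrez 21679, chr6:128227143-128300813, minus strand) had 26.8, 24.2 and 38.9 CPM. For Tead1 and Tead4 the shMYC table held the highest value, and the shCTR9 and shCDC73 tables were only 0.07 and 0.14 apart. Exons of Tead2 overlap the opposite-strand gene Cd37 by 13 bases.

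Levels of different genes were compared per kilobase of exon, from the GENCODE exons of each gene. Summed over the 4 TEAD genes, the level was 19.2 CPM per kb in the shCTR9 table, 23.5 in the shCDC73 table and 24.9 in the shMYC table. Tead4 held the greatest share of that sum with shCTR9 (38.8%) and shMYC (43.5%), and Tead2 with shCDC73 (40.4%). The share of Tead2 was 10.5% in the shCTR9 table and 15.7% in the shMYC table. Tead3 held 22.7%, 9.28% and 11.9% in the shCTR9, shCDC73 and shMYC tables. The order depends on the length used. Per kilobase of coding sequence Tead1 held the greatest share in every table (53.2%, 45.4% and 56.1%), since its exons span 13570 bases and its coding sequence 1308. The place of Tead2 shifted in the same way on that scale, with 6.88%, 29.3% and 10.5%.

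**Figure D2:**
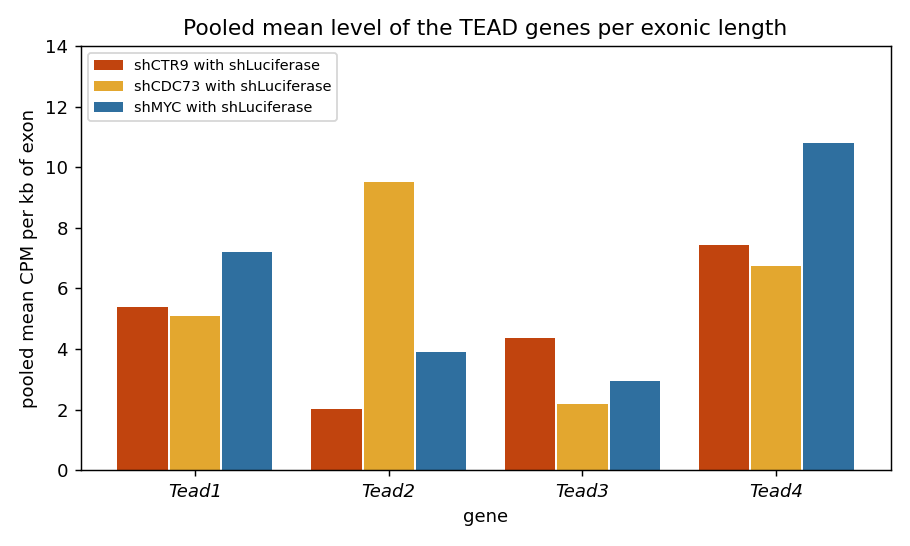
Pooled mean CPM per kilobase of exon (vertical axis, from 0) of the 4 TEAD genes, with 1 bar per table and no error bars, as each bar is 1 pooled value. Tead2 is the tallest TEAD bar of the shCDC73 table at 9.52, against 2.01 in the shCTR9 table and 3.89 in the shMYC table.

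Of the LATS kinase genes, Lats2 was lower in both PAF1c tables than in the shMYC table, and Lats1 differed less. Lats2 (Entrez 50523, chr14:57689662-57746212, minus strand), which restrains YAP and is also induced by it, had 22.2 CPM in the shCTR9 table, 14.5 in the shCDC73 table and 35.7 in the shMYC table. Its differences were −0.68 for shCTR9 minus shMYC, −1.30 for shCDC73 minus shMYC and 0.61 for shCTR9 minus shCDC73. Lats1 (Entrez 16798, chr10:7681200-7716461, plus strand) had 32.4, 28.4 and 37.1 CPM, and differences of −0.20, −0.39 and 0.19, of which the second alone is past the threshold of 0.3 used here, and not relative to the median of all genes (−0.23). Per kilobase of exon Lats1 stood at 1.39 times the level of Lats2 with shCTR9, at 1.87 times with shCDC73 and at 0.993 times with shMYC. Coding length gave 1.35, 1.80 and 0.959. Exons of Lats2 share 2955 bases with Gm49361, a GENCODE gene on the same strand. Whether reads in them were counted for Lats2 depends on the annotation and settings of the count, which are not given in the sources used here.

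Both target genes were lower in the PAF1c tables than in the shMYC table, and Ankrd1 had the widest gap of all 10 members in both comparisons. Ankrd1 (Entrez 107765, chr19:36111965-36119844, minus strand) encodes an ankyrin repeat protein and is a standard readout of YAP-TEAD activity. It had 91.6 CPM in the shCTR9 table, 114 in the shCDC73 table and 456 in the shMYC table. The differences were −2.32 for shCTR9 minus shMYC (a ratio of 0.201) and −2.00 for shCDC73 minus shMYC (a ratio of 0.250). In the first, 32 of 11723 genes lay lower, and in the second 56 of 11788. If the controls were shared, gaps this wide place Ankrd1 in the shMYC cells above the control. Whether Ctr9 or Cdc73 depletion changed Ankrd1 against the control is not shown. Set against each other, shCTR9 and shCDC73 differed by −0.32. Amotl2 (Entrez 56332, chr9:102717091-102733418, plus strand) encodes an angiomotin family protein that binds YAP and holds it in the cytoplasm. It had 179, 175 and 262 CPM, with differences of −0.55 and −0.58 against shMYC and 0.03 between the PAF1c tables. Both target genes hold the TEAD core in the sequence printed above, that of Amotl2 inside its annotated gene. Yap1, whose pooled mean scarcely differed, holds the core too.

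Counted together, most members differed between a PAF1c table and the shMYC table by more than 0.3 on the log2 scale, a ratio of 1.23, which is the threshold used here in place of a test. For shCTR9 minus shMYC, 7 of 10 members were past it, 1 higher (Tead3) and 6 lower, where 46.3% of all 11723 genes were past it, 13.2% higher and 33.1% lower. For shCDC73 minus shMYC, 8 of 10 were past it, 1 higher (Tead2) and 7 lower, against 54.4% of 11788 genes, 16.9% higher and 37.5% lower. For shCTR9 minus shCDC73, 4 of 10 were past it, with Tead3 and Lats2 higher and Tead2 and Ankrd1 lower, against 29.9% of 11806 genes, 15.4% higher and 14.5% lower. The median difference of the members was −0.48, −0.47 and 0.05, and that of all genes −0.12, −0.15 and 0.01. With so many genes past the threshold in every comparison, the counts of members say little by themselves, and the 3 comparisons share tables and control libraries. Since the median of all genes was shifted in both comparisons with shMYC, the differences were also taken relative to it. They then came to −2.20 and −1.84 for Ankrd1, −0.56 and −1.14 for Lats2, −0.83 and 1.44 for Tead2 and −0.43 and −0.43 for Amotl2 (shCTR9 minus shMYC, then shCDC73 minus shMYC). Relative to the median, 7 members were past the threshold for shCTR9 minus shMYC (background 45.3%, with 21.5% higher and 23.8% lower). There were 6 for shCDC73 minus shMYC (52.3%, with 26.6% higher and 25.8% lower), where Tead3 (−0.28) and Lats1 (−0.23) came to lie within it. For shCTR9 minus shCDC73 there were 4 (29.9%, with 15% higher and 14.9% lower).

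**Figure D3:**
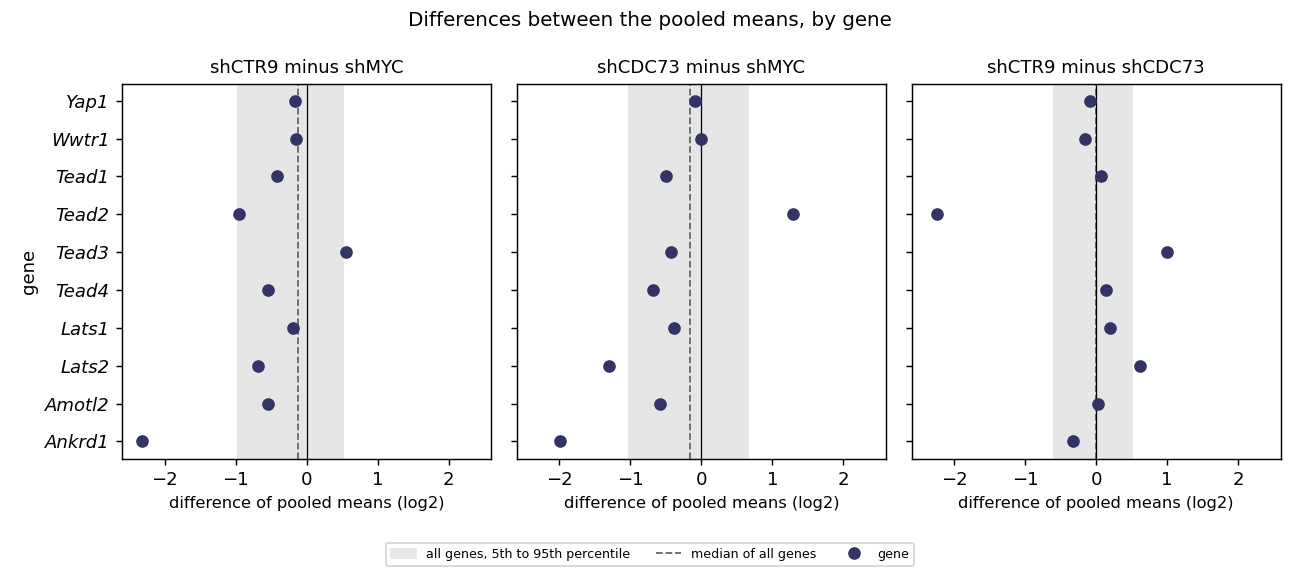
Difference of pooled means (log2, horizontal axis) of each of the 10 genes (vertical axis) in 3 comparisons, with the range from the 5th to the 95th percentile of all genes in grey and their median as a dashed line. Ankrd1 lies far to the left of the grey range in both comparisons with shMYC, at −2.32 and −2.00, and Tead2 at −2.24 for shCTR9 minus shCDC73.

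Levels per kilobase of exon set the target genes and coactivator genes above the kinase and TEAD genes. Ankrd1 was highest in all 3 tables, with 31.7, 39.6 and 158 CPM per kb in the shCTR9, shCDC73 and shMYC tables, and Amotl2 and Wwtr1 followed (28.4, 27.8 and 41.6 for Amotl2, 26.4, 29.3 and 29.3 for Wwtr1). Yap1 came next in every table, at 13.5 to 15.1 CPM per kb. The other 6 genes lay between 2.01 and 10.8 CPM per kb. Without values per library, no spread is at hand to say which neighbours in this order differ. The members also differ in structure, with gene lengths of 7880 bases for Ankrd1 up to 227429 for Tead1, and with 3.97% (Wwtr1) to 38.5% (Amotl2) of the gene in exons. Reads were mapped with Bowtie 2, which does not split reads over introns, so genes with many short exons lose more reads at their junctions.

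Of 61 other Hippo pathway genes written as 4 lists, 52 had a row in at least 1 table and 51 in all 3. For shCTR9 minus shMYC, 28 of the 51 were past the threshold, 4 higher and 24 lower, for shCDC73 minus shMYC 32, 4 higher and 28 lower, and for shCTR9 minus shCDC73 13, 5 higher and 8 lower, with medians of −0.25, −0.34 and −0.00. Relative to the median of all genes these were 23 (5 higher, 18 lower), 30 (8 higher, 22 lower) and 13 (5 higher, 8 lower). The share past the threshold in either direction was 54.9%, 62.7% and 25.5%, against 46.3%, 54.4% and 29.9% of all genes. The lower share was 47.1% for shCTR9 minus shMYC and 54.9% for shCDC73 minus shMYC, against 33.1% and 37.5% of all genes. Relative to the median it was 35.3% and 43.1%, against 23.8% and 25.8%.

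The other YAP-TEAD target genes made up the list with the greatest share past the threshold in each comparison with shMYC, 11 of 14 for shCTR9 minus shMYC (1 higher, 10 lower) and 14 of 14 for shCDC73 minus shMYC (4 higher, 10 lower). Of all genes 46.3% and 54.4% were past it, 33.1% and 37.5% lower. Relative to the median of all genes, the targets past it were 10 (1 higher, 9 lower) and 12 (4 higher, 8 lower), as Arhgef17 and Asap1 came to lie within it with shCDC73 (−0.19 for each). Of all genes 45.3% and 52.3% were then past it, 23.8% and 25.8% lower. Ccn1, which encodes the secreted matrix protein CYR61, had 116 CPM in the shCTR9 table, 279 in the shCDC73 table and 449 in the shMYC table. F3, which encodes tissue factor, had 122, 113 and 278 CPM, and Crim1, a transmembrane protein gene, 77.8, 85.5 and 177 CPM. Igfbp3, which encodes an IGF-binding protein, had 105, 136 and 203 CPM. All 4 were lowest in a PAF1c table and highest with shMYC. The pattern was not shared by all targets. Ccn2, which encodes connective tissue growth factor, had 186, 433 and 249 CPM and was thus highest with shCDC73, as was Gadd45b, a stress-response gene (48.8, 83.7 and 45.8 CPM). Nt5e, which encodes the ectonucleotidase CD73, had 35.1, 19.7 and 36.7 CPM and was lowest with shCDC73. Axl, a receptor tyrosine kinase gene, had 565, 614 and 845 CPM. Myof, which encodes the membrane protein myoferlin, had 326, 308 and 507 CPM. Dock5, Arhgef17 and Asap1 had differences against shMYC of −0.65, −0.51 and −0.47 with shCTR9, and −0.97, −0.34 and −0.34 with shCDC73. Foxf2 was higher by 0.36 and 0.33, and Fjx1 had −0.10 and 0.43. For shCTR9 minus shCDC73, 7 of 14 targets (50%) were past the threshold, against 29.9% of all genes (15.4% higher, 14.5% lower). Nt5e (0.83) and Dock5 (0.32) were higher with shCTR9. Ccn1 (−1.27), Ccn2 (−1.21), Gadd45b (−0.78), Fjx1 (−0.53) and Igfbp3 (−0.38) were lower with shCTR9.

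**Figure D4:**
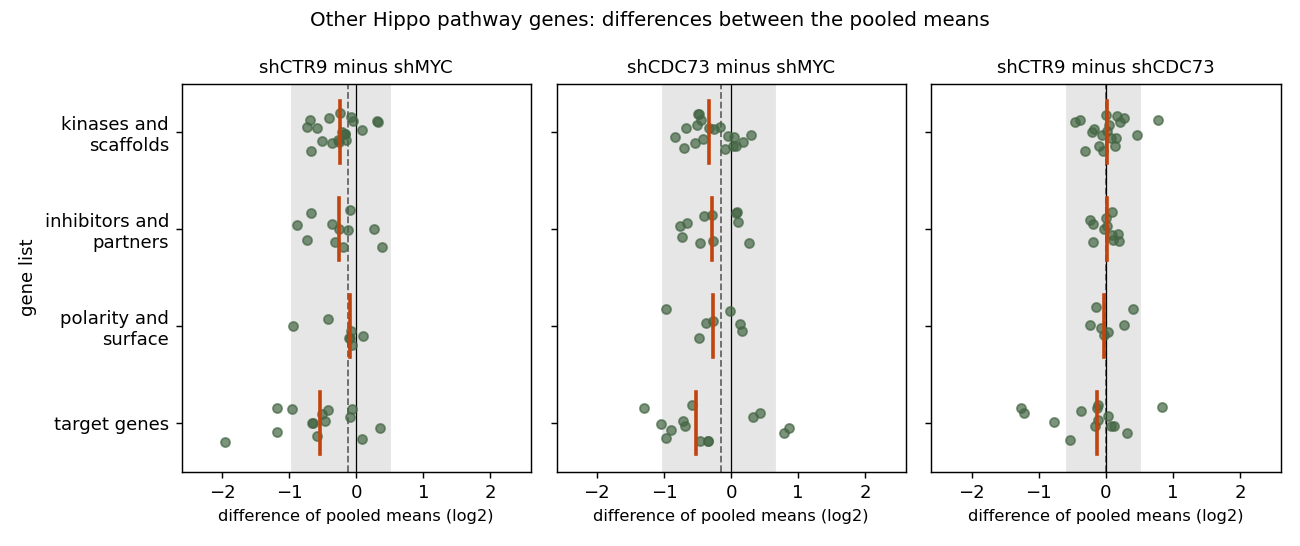
Difference of pooled means (log2, horizontal axis) of the other Hippo pathway genes in 4 lists (vertical axis, points spread for visibility), with list medians in red, the 5th to 95th percentile of all genes in grey and their median as a dashed line. The target gene list has medians of −0.55 and −0.52 against shMYC, and −0.13 for shCTR9 minus shCDC73.

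Among the 19 upstream kinase and scaffold genes, 9 were past the threshold for shCTR9 minus shMYC (2 higher, 7 lower), 10 for shCDC73 minus shMYC (all lower) and 5 for shCTR9 minus shCDC73 (2 higher, 3 lower). In either direction these are 47.4%, 52.6% and 26.3%, close to the 46.3%, 54.4% and 29.9% of all genes. The lower share in the comparisons with shMYC was 36.8% and 52.6%, against 33.1% and 37.5% of all genes. Relative to the median, 7 (2 higher, 5 lower) and 10 (2 higher, 8 lower) were past it against shMYC, where 45.3% and 52.3% of all genes were. The lower share was then 26.3% and 42.1%, against 23.8% and 25.8%. The kinase genes Stk3 and Stk4, which encode MST2 and MST1, stood apart from each other. Stk3 had 13.6, 14.1 and 22.6 CPM in the shCTR9, shCDC73 and shMYC tables, with differences of −0.73 and −0.67 against shMYC, and Stk4 had 55.5, 55.1 and 58.5 CPM, with −0.07 and −0.09. Sav1, which encodes the adaptor of the MST kinases, was higher with shCTR9 (0.32) and had a difference of 0.05 with shCDC73. The KIBRA scaffold gene Wwc1 (187, 168 and 299.6 CPM), its relative Wwc2 (75.9, 87.4 and 122 CPM) and the merlin gene Nf2 (73.5, 71.0 and 97.4 CPM) were all lower in both PAF1c tables than in the shMYC table. So were Mob1a, a LATS cofactor gene (−0.36 and −0.42), Taok3 (−0.51 and −0.51) and Stk38l (−0.58 and −0.54). Mob1a came to lie within the threshold in both comparisons once the median was subtracted (−0.23 and −0.27), and Nf2 with shCTR9 (−0.28). Taok1 (−0.16 and −0.33) and Mink1 (−0.24 and −0.70) were past the threshold against shMYC with shCDC73 alone. Stk38, a LATS-related kinase gene, was higher with shCTR9 (0.30) and lower with shCDC73 (−0.48). Map4k2, Map4k3 and Map4k4, whose kinases can act beside MST1 and MST2, had −0.32, −0.46 and −0.38 for shCTR9 minus shCDC73, in contrast to Stk38 with 0.78 and Mink1 with 0.46.

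Among the 11 inhibitor and partner genes, 6 were past the threshold for shCTR9 minus shMYC (1 higher, 5 lower), 5 for shCDC73 minus shMYC (all lower) and 0 between the PAF1c tables. These are 54.5%, 45.5% and 0%, against 46.3%, 54.4% and 29.9% of all genes. The lower share against shMYC was 45.5% in both comparisons, where it was 33.1% and 37.5% of all genes. With the median subtracted the counts were 5 (2 higher, 3 lower) and 5 (1 higher, 4 lower), where 45.3% and 52.3% of all genes were past it. The lower share was then 27.3% and 36.4%, against 23.8% and 25.8%. Vgll4, whose protein competes with YAP for TEAD factors, had 9.54, 11.2 and 17.6 CPM, and Rassf1, a tumor suppressor gene of the MST kinases, 42.2, 39.7 and 67.2 CPM. Amotl1, an angiomotin relative of Amotl2, had 2.29, 2.29 and 3.79 CPM, whereas Amot had differences of −0.10 and 0.10. Dlg5 was lower as well (−0.37 and −0.46), though not relative to the median with shCTR9 (−0.25). The phosphatase gene Ptpn14 had −0.31 and −0.28, past the threshold with shCTR9 alone, and relative to the median within it in both comparisons (−0.19 and −0.13). Ajuba, whose LIM domain protein binds LATS kinases, had 201, 177 and 167 CPM and stayed within the threshold in all 3 comparisons. The 14-3-3 protein genes, whose products retain phosphorylated YAP in the cytoplasm, differed from each other, Ywhaq with 0.38 and 0.27 and Ywhab with −0.20 and −0.40. Of the 7 polarity and cell surface genes, 2 were past the threshold for shCTR9 minus shMYC, 3 for shCDC73 minus shMYC and 1 between the PAF1c tables. These are 28.6%, 42.9% and 14.3%, below the 46.3%, 54.4% and 29.9% of all genes. Relative to the median 1, 3 and 1 were past it (14.3%, 42.9% and 14.3%), against 45.3%, 52.3% and 29.9% of all genes. The protocadherin gene Fat1 had 145, 142 and 277 CPM, while Scrib (175, 178 and 162 CPM) and Llgl1 (69.8, 73.1 and 74.1 CPM) were within the threshold in every comparison. Pals1 had −0.42 and −0.27 against shMYC, Patj −0.11 and −0.38, and Crb3 −0.07 and −0.47, with 0.41 for Crb3 between shCTR9 and shCDC73.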

How the data were processed

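RNA of 12 KPC libraries (3 each of shCTR9, shCDC73, shMYC and shLuciferase) was enriched for poly(A) transcripts and sequenced with a strand-specific kit. Mapping to mm10 by the authors used Bowtie2 (2.3.4.1, per the labels). After scaling all samples to the smallest one, the authors obtained gene counts from featureCounts, dropped genes under 5 reads and ran edgeR on each depletion with its shLuciferase control. The gene annotation and strand setting of the count are not given in the sources used here. The deposited tables give a mean log2 CPM per gene, from the authors, which was taken as it stands. The other 4 value columns of a table hold the authors' own comparison (log2 fold change, likelihood ratio, p-value and adjusted p-value) and were not used.

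Pooled means were subtracted between tables over all genes that both hold, matched by Entrez identifier, and called past the threshold at a difference over 0.3. That the mean of a table covers the libraries of its own comparison is inferred: edgeR averages over the libraries of a fit by the authors, and no gene had an equal mean in any 2 tables (0 genes). The calling step was tested on simulated data, which gives no error rate for the calls made here. Other thresholds, centring on the median of all genes and a filter on low means were tried. Exon and coding lengths are from GENCODE M21 (GRCm38), with the union of exons and the longest coding sequence per gene. Gene coordinates are from RefSeq on GRCm38.p6, the assembly of mm10, matched by Entrez identifier for all 10 members. Named genes were all members, all genes of the other lists past the threshold in at least 1 comparison, the 3 with the highest mean per list, the shRNA targets and the cell type markers with a row in a table. The members, lists and thresholds were chosen with earlier results of these data known. A gene of the lists is not reported here. Scripts ran in Python 3.11.15 (pandas 2.3.3, numpy 2.4.6, matplotlib 3.10.9).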

Additional observations from a re-analysis of the deposited data

How the results depend on the processing

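The counts of members and of other pathway genes past the threshold stayed within 1.5 times of the reported value in all 3 comparisons with a threshold of 0.2, with centring on the median of all genes and with a minimum mean log2 CPM of 1. With a threshold of 0.5, 5 members were past it for shCDC73 minus shMYC, against 8 at 0.3. At 0.5 the other pathway genes past it were 17 for shCTR9 minus shMYC, 18 for shCDC73 minus shMYC and 6 for shCTR9 minus shCDC73, against 28, 32 and 13 at 0.3. A higher threshold gives fewer calls by construction. Coding in place of exonic length changed the rank of a member in 22 of 30 cases, though Ankrd1 stayed first in every table. No paired analysis was possible because the tables hold no value per library, and leaving out each replicate in turn was not run for the same reason. The precision of a pooled mean is not known from these tables.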
